A study of Mus musculus with 6 samples.

Results

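The genes of the interleukin-1 (IL-1) system were followed in infarcted mouse heart. They were 10 genes chosen by name: the ligands Il1a, Il1b, Il33 and Il18, the signalling receptors Il1r1 and Il1rl1, the decoy receptor Il1r2, the receptor antagonist Il1rn, and the inflammasome genes Nlrp3 and Casp1. All 10 of these, out of 36047 annotated genes in the files, passed the filter on low counts, which left 20094 genes for testing. The hearts came from C57BL6 mice aged 12 weeks that had undergone ischemia/reperfusion (I/R), in which a coronary artery is closed and then reopened. Both groups had this injury, and no uninjured group was analysed here, so every value describes infarct tissue 48 h after I/R. One group of 3 mice received LGK-974, an inhibitor of Porcupine, the enzyme that lipidates Wnt proteins for secretion, and the other group of 3 received the vehicle DMSO. The agent was given by mouth to the whole animal, and the RNA came from the whole infarct area, so fewer cells of a type and less RNA per cell cannot be told apart. No label states whether the 3 libraries of a group were prepared together.

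The IL-1 system is an early alarm after tissue death. Dying cells release IL-1α and IL-33, which are active without cutting, whereas IL-1β and IL-18 are made as precursors that caspase-1 cleaves once an inflammasome such as NLRP3 has assembled. IL-1α and IL-1β signal through IL1R1 with an accessory chain, and the decoy IL1R2 and the antagonist IL1RN hold this signal back. IL-33 signals through ST2, the product of Il1rl1, which also exists as a soluble form that binds IL-33 without signalling and is measured in blood as a marker of cardiac strain.

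All 10 are protein-coding genes in the annotation of GRCm38. The receptor genes Il1r2 (chr1:40074079-40125231), Il1r1 (chr1:40225080-40317257) and Il1rl1 (chr1:40429570-40465415) lie in this order on the plus strand of chromosome 1. Il1a (chr2:129299610-129309972) and Il1b (chr2:129364570-129371139) are close together on the minus strand of chromosome 2, which also carries Il1rn (chr2:24336853-24351494, plus strand). Il18 (chr9:50554827-50581840) and Casp1 (chr9:5298517-5307265) are on chromosome 9, Nlrp3 (chr11:59541568-59566956) is on chromosome 11 and Il33 (chr19:29925114-29960718) on chromosome 19, all on the plus strand.

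The 4 members higher in every LGK-974-treated animal were Il33, Il1r1, Il1rn and Casp1, and the soluble and membrane forms of Il1rl1 were examined as separate transcripts, so the sequences behind these are shown first. Both forms of ST2 share their first 328 codons in the annotation (GENCODE, GRCm38). The last 30 shared bases lie at chr1:40446646-40446675 on the plus strand and are written in lower case, and the 29 coding bases that follow in only one form are in capitals. The soluble form reads on into the sequence directly behind the exon, chr1:40446676-40446704, and ends there at 337 residues. The membrane form continues in the next exon, from chr1:40450075-40450103, and reaches 567 residues.
Il1rl1-203, soluble: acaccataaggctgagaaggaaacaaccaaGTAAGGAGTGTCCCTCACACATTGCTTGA
Il1rl1-202, membrane: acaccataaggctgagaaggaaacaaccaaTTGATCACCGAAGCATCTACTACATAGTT

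The 250 bases upstream of the start sites of the 4 genes that lay higher in every LGK-974 library are shown because these genes lay higher together, each for its most abundant transcript (RefSeq, GRCm38.p6, written 5′ to 3′ on the plus strand, on which all 4 genes lie). Capitals mark matches to an NF-κB-type motif, GGG and CC separated by any 5 bases, on either strand. The windows are chr19:29924863-29925112 for Il33, chr2:24345041-24345290 for Il1rn, chr1:40266336-40266585 for Il1r1 and chr9:5298267-5298516 for Casp1.
Il33: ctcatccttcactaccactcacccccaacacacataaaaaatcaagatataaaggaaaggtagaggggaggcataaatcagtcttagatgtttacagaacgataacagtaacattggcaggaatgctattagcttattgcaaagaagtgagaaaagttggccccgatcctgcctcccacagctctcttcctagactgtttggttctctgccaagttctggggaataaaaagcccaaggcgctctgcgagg
Il1rn: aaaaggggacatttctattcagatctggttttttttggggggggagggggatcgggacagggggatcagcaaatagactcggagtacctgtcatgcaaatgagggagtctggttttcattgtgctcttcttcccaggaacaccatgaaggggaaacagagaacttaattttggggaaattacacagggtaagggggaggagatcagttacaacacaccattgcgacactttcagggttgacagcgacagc
Il1r1: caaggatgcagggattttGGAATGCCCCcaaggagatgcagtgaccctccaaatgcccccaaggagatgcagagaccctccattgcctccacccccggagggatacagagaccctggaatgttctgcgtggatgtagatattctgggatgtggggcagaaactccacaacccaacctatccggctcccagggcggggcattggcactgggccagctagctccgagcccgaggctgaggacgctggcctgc
Casp1: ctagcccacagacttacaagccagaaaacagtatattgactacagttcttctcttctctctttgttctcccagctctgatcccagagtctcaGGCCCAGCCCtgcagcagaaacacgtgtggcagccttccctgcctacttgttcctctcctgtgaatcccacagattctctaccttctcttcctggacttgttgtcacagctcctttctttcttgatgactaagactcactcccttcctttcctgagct

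This motif was in the windows of 3 of the 10 members, Il1r1, Casp1 and Nlrp3, and in 45.8% of all 32851 windows of the same length, so its presence does not set the members apart. The AP-1 motif TGANTCA was in the Il1a window alone among the members and in 6.75% of all windows. The TCF/LEF motif CTTTGA, the letters bound by the factors at the end of canonical Wnt signalling, was in the Nlrp3 window alone and in 13.8% of all windows. Each window ends at the RefSeq start nearest to the annotated start of the member's most abundant coding transcript. That distance was 999 bases for Il1rl1, 127 for Il18, 108 for Il1r2 and at most 19 for the other members. The Il1rl1 window therefore belongs to another start than that of Il1rl1-201. These are matches of letters and no evidence of binding.

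Across the libraries, between 41579787 and 80398211 estimated counts were assigned to transcripts, of which 28.2 to 53.7% were mitochondrial. Values are given as CPM, counts scaled to library size with TMM factors, where TMM removes differences in RNA composition between libraries. Genes that heart tissue should not use (1501 olfactory, vomeronasal and taste receptor genes) served as a measure of background. Their median, not scaled to library size, was 40.09 counts per kb in DMSO replicate 1. It was between 3.616 and 14.18 in the other DMSO libraries and between 3.602 and 13.53 with LGK-974. The LGK-974 libraries held 80398211, 65857384 and 46208470 estimated counts, and the DMSO libraries 48470064, 48517100 and 41579787. Relative to these totals, DMSO replicate 2 (14.18) also lay above every LGK-974 library. DMSO replicate 3 (3.616) lay below LGK-974 replicate 1 (13.53) and just above LGK-974 replicates 2 (5.242) and 3 (3.602). DMSO replicate 1 stood furthest apart, and results that rest on it are given with and without it. Leaving it out does not make background equal between the groups.

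In the quasi-likelihood test of edgeR, adjusted by Benjamini-Hochberg over all genes, no gene passed an adjusted p of 0.05 (0.0% called), and 2699 genes (13.4%) had an unadjusted p under that value. The members were part of this, with 0 of 10 past the adjusted threshold and the lowest adjusted p at 0.368. In 4 of the 10 members every LGK-974 library lay above every DMSO library, against 10.7% of all tested genes, and in 0 members every LGK-974 library lay below, against 7.27%. The same 4 members had an unadjusted p under 0.05, against 6.26% of tested genes that had one and were higher with LGK-974, and 0 members had one and were lower, against 7.18%. The study's own tool, DESeq2, called 2 members, Il33 and Il1rn, at an adjusted p of 0.05, where it called 289 of 23567 genes (1.23%). Without DMSO replicate 1, DESeq2 called Il33, Il1rn and Casp1 (2.28% of genes called) and edgeR 0 members (0.0108%). With all 6 libraries, edgeR without the filter on low counts called the same 3 members (3.52%). Over all tested genes the median log2 fold change was −0.13, and 0.08 when library totals replaced TMM, whereas the median of the 10 members was 0.73.

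**Figure D1:**
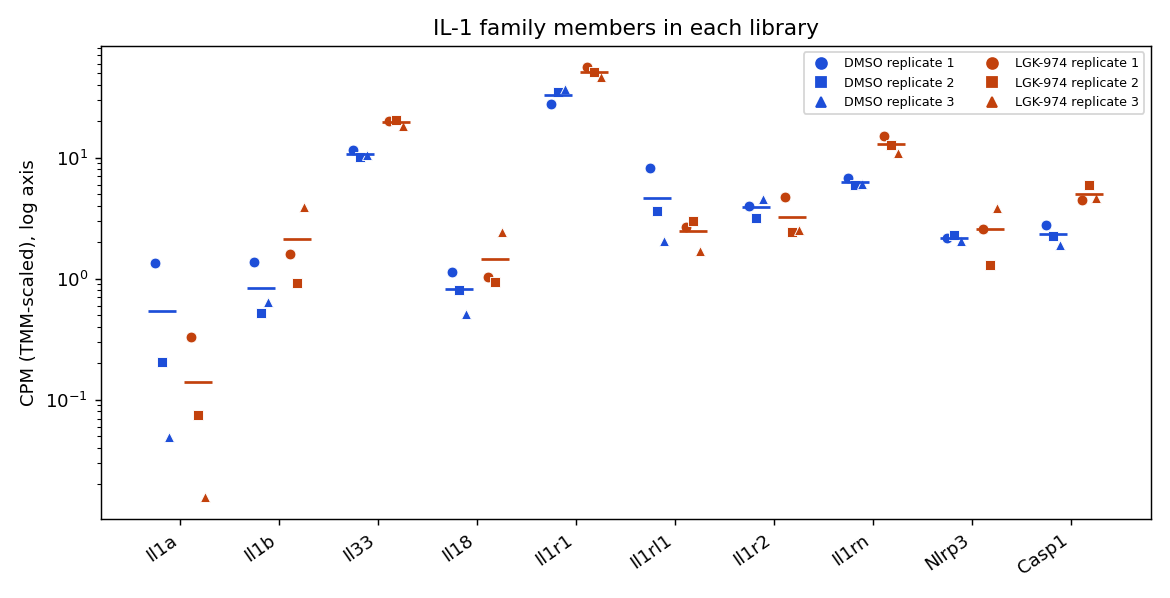
Expression of the 10 members in each library, in CPM on a log axis, with DMSO in blue, LGK-974 in orange, a symbol for each replicate and a line at the group mean (n = 3 mice each). The groups are apart for Il33, Il1r1, Il1rn and Casp1 and overlap for the other 6, and DMSO replicate 1 is the highest library for Il1a and Il1rl1.

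Il33, the alarmin stored in the nuclei of stromal and endothelial cells, gave the smallest p of the family. It was at 20.11, 20.42 and 18.12 CPM in the LGK-974-treated animals and at 11.59, 10.18 and 10.51 CPM in the DMSO-treated animals. Every LGK-974 library was above every DMSO library, with little spread inside either group. The means were 19.55 ± 1.25 and 10.76 ± 0.736 CPM (SD, n = 3 each), a 1.82-fold higher level, with a log2 fold change of 0.86 ± 0.148 (SE, adjusted p = 0.368 in edgeR and 0.00961 in DESeq2). Relative to the median of all genes, Il33 was higher by 0.99 on the log2 scale.

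Most Il33 RNA was assigned to Il33-202, which starts at the upstream promoter shown above and held 66.8% of the gene's TPM, a level scaled to transcript length. Its log2 fold change was 0.86 ± 0.221 (SE, adjusted p = 0.811 in edgeR over 58618 transcripts), the same size as that of the gene. Il33-201, which starts at the downstream promoter and encodes the same 266 residues, held 16.5% of the TPM and had a log2 fold change of 1.28 with a standard error of 0.784. Of the counts per kb in these 2 transcripts, the upstream one held 79.9 ± 8.62% in LGK-974-treated and 84.8 ± 11.0% in DMSO-treated animals (SD, n = 3 each), a difference within the spread between mice (exact two-sided permutation test, p = 0.6).

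Il1rn encodes the antagonist that occupies IL1R1 without signalling. Its levels were 15.08, 12.78 and 10.85 CPM with LGK-974 and 6.761, 5.978 and 6.091 CPM with DMSO. The groups did not overlap, and the lowest LGK-974 library lay well above the highest DMSO library. The mean was 2.06-fold higher, with a log2 fold change of 1.04 ± 0.192 (SE, adjusted p = 0.368 in edgeR and 0.0147 in DESeq2), or 1.17 relative to the median of all genes. The transcript of the secreted antagonist with 178 residues, Il1rn-201, held 56.3% of the gene's TPM and had a log2 fold change of 1.15 ± 0.266 (SE). Il1rn-204, from the upstream start that gives an intracellular antagonist of 159 residues, held 8.48% of the TPM, and its part of the counts per kb at both starts was 8.77 ± 3.58% in LGK-974-treated and 11.4 ± 10.01% in DMSO-treated animals (SD, n = 3 each, exact two-sided permutation test, p = 0.9).

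Casp1 encodes the protease that activates IL-1β and IL-18. It was measured at 4.429, 5.953 and 4.635 CPM with LGK-974 and at 2.79, 2.255 and 1.916 CPM with DMSO, again without overlap. It had the largest fold of the 4 separated members, 2.16-fold, with a log2 fold change of 1.11 ± 0.286 (SE, adjusted p = 0.368 in edgeR and 0.0811 in DESeq2). In DMSO replicate 1, where the background was highest, Casp1 was at 2.14 times the median per kb of the receptor genes used as background. Of those genes 29.1% were at or above it, so Casp1 was not clearly separable from background in that library. In DMSO replicates 2 and 3 it was at 5.94 and 16.7 times the median. Without DMSO replicate 1 the log2 fold change was 1.28. The gene has 1 annotated transcript, so its counts are not divided between isoforms.

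Il1r1, the signalling receptor for IL-1α and IL-1β, was the most abundant member. Its levels were 55.69, 50.76 and 46.76 CPM with LGK-974 and 28, 35 and 36.79 CPM with DMSO, and the groups did not overlap. By TPM they did, since LGK-974 replicate 2 (9.795) lay below DMSO replicate 3 (12.25), and with counts scaled from TPM Il1r1 lost its unadjusted p under 0.05, at a log2 fold change of 0.54. The difference in CPM was the smallest of the 4, 1.54-fold, with a log2 fold change of 0.62 ± 0.165 (SE, adjusted p = 0.368 in edgeR and 0.0897 in DESeq2). Its transcripts begin at an upstream and a downstream start. The downstream Il1r1-202 held 50.4% of the TPM and the upstream Il1r1-201 held 18.7%, with log2 fold changes of 0.66 ± 0.275 (SE) and 0.69 ± 0.299 (SE). The upstream part of their counts per kb was 28.3 ± 5.55% in LGK-974-treated and 28.7 ± 12.1% in DMSO-treated animals (SD, n = 3 each, exact two-sided permutation test, p = 1.0).

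**Figure D2:**
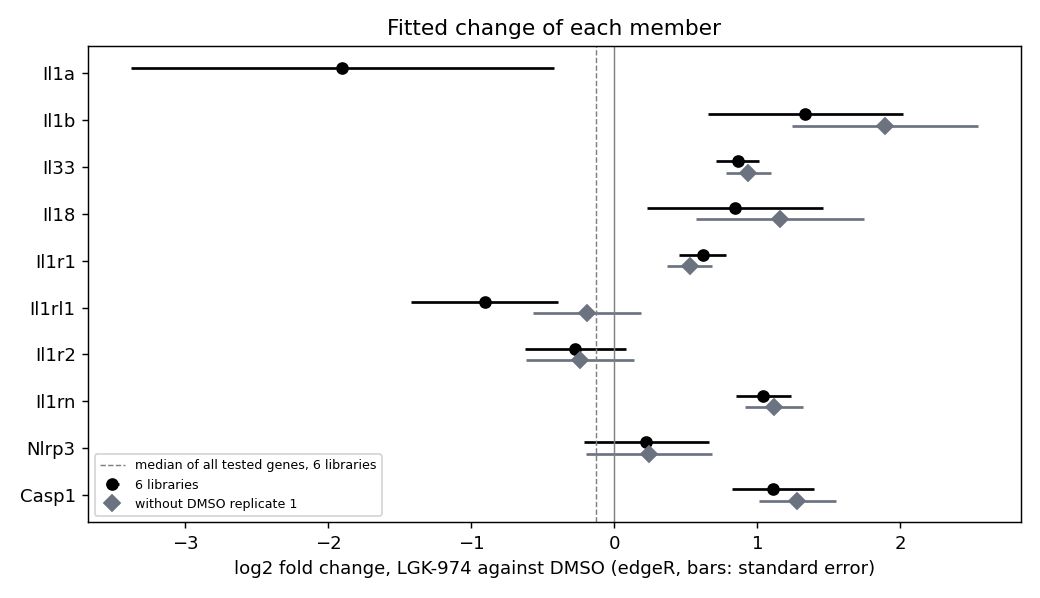
Fitted log2 fold change of each member, LGK-974 relative to DMSO, from edgeR, with bars for the standard error. Black points use all 6 libraries, grey diamonds leave out DMSO replicate 1 (Il1a is then filtered out), and the dashed line is the median of all tested genes at −0.13. Without that library Il33 is at 0.94, Il1rn at 1.12, Casp1 at 1.28 and Il1r1 at 0.53, close to their values in 6 libraries, whereas Il1rl1 goes from −0.91 to −0.19.

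The other ligands did not separate the groups. Il1b, which encodes the IL-1β precursor and is made mostly by activated myeloid cells, was at 1.602, 0.914 and 3.883 CPM with LGK-974 and at 1.382, 0.517 and 0.639 CPM with DMSO. LGK-974 replicate 3 was far above the rest, and LGK-974 replicate 2 lay below DMSO replicate 1. The log2 fold change was 1.34 ± 0.681 (SE, adjusted p = 0.384 in edgeR), and it was 1.89 without DMSO replicate 1 and 0.67 without LGK-974 replicate 3. In DMSO replicates 1 and 2, Il1b was at 1.79 and 2.3 times the median per kb of the background receptor genes. Of those genes 33.1% and 29.5% were at or above it, so it was not clearly separable from background there. Il1b shares 25 exon bases with an antisense gene, Il1bos, and the counting is not stated to use strand. In cultured macrophages, the paper reported lower IL-1β expression by qPCR after supernatant from hypoxic cardiomyocytes treated with LGK-974 than without it. A stimulated cell line and infarct tissue are unlike settings, and the Il1b values here overlapped between groups.

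Il18, the second caspase-1 substrate, was at 1.025, 0.933 and 2.443 CPM with LGK-974 and at 1.131, 0.807 and 0.516 CPM with DMSO. Only LGK-974 replicate 3 lay above all DMSO libraries, and the log2 fold change of 0.84 had a standard error of 0.615. In DMSO replicate 1, Il18 was at 1.85 times the median per kb of the background receptor genes. Of those genes 32.5% were at or above it, so Il18 was not clearly separable from background there. Il1a, the IL-1α precursor, had 28, 4 and 1 estimated counts with LGK-974 and 54, 10 and 2 with DMSO. Per kb these counts were 0.157 to 1.17 times the median of the silent receptor genes in the same library, so Il1a was at background in these data and its log2 fold change of −1.90 ± 1.48 (SE) is not read as a difference. It also shares 222 exon bases with Gm14023 on the opposite strand.

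Besides Il1a, Il1rl1 and Il1r2 had lower means under LGK-974. Il1rl1 was at 2.674, 3.023 and 1.691 CPM with LGK-974 and at 8.143, 3.661 and 2.063 CPM with DMSO, and DMSO replicate 1 alone made most of the difference in means. The log2 fold change was −0.91 ± 0.514 (SE, adjusted p = 0.415 in edgeR) and −0.19 ± 0.378 (SE) without that library. In DMSO replicate 1, Il1rl1 lay only 1.94 times above the silent-gene median per kb, and in the other libraries it lay 3.0 to 7.41 times above it. From 17.1% of the silent genes (LGK-974 replicate 2) to 31.0% (DMSO replicate 1) were at or above its level per kb. Il1rl1 was therefore not clearly separable from background in any library.

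Il1r2, the decoy receptor that neutrophils and other myeloid cells carry, was at 4.735, 2.426 and 2.521 CPM with LGK-974 and at 3.971, 3.165 and 4.593 CPM with DMSO. The groups overlapped, and the log2 fold change was −0.27 ± 0.354 (SE). Nlrp3, the sensor of the inflammasome, was at 2.556, 1.306 and 3.805 CPM with LGK-974 and at 2.187, 2.317 and 2.063 CPM with DMSO. The LGK-974 libraries lay on both sides of the DMSO libraries, so that the log2 fold change of 0.22 ± 0.438 (SE) became −0.10 when LGK-974 replicate 3 was left out and 1.02 when the silent-gene background was subtracted. In DMSO replicate 1 Nlrp3 was at 0.707 times the silent-gene median per kb and so was not separable from background there.

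**Figure D3:**
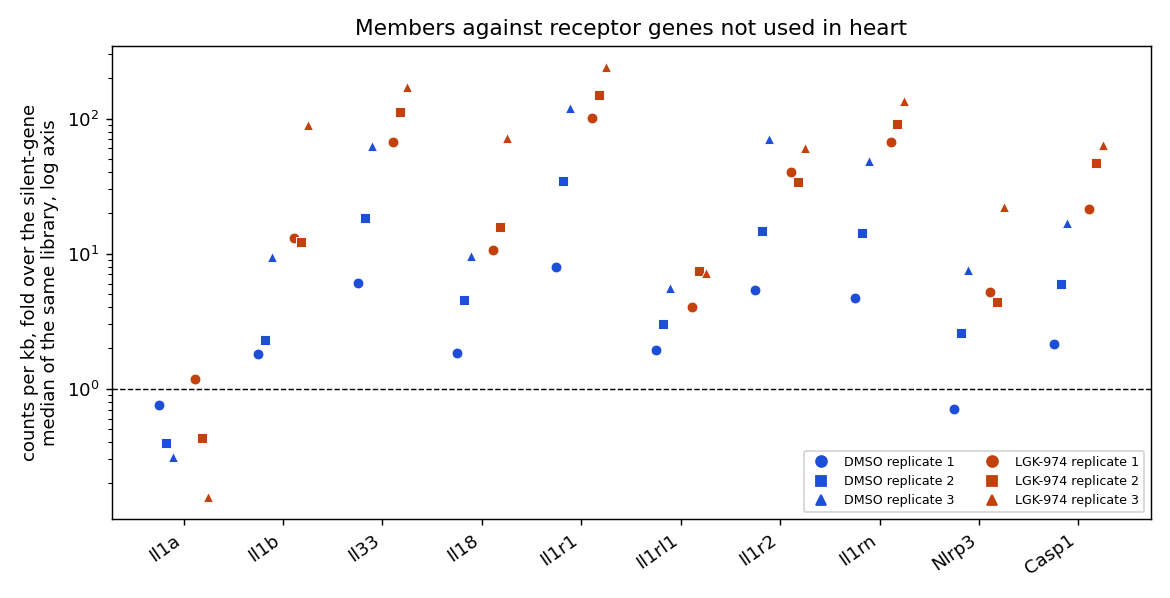
Estimated counts per kb of each member as a multiple of the median of 1501 silent receptor genes in the same library, on a log axis, with 1 dashed. Il1a is at or below the line in most libraries, Nlrp3 is below it in DMSO replicate 1, and Il33, Il1r1 and Il1rn are at least 4.71-fold above it in every library. In DMSO replicate 1, Casp1 is at 2.14, Il1rl1 at 1.94, Il18 at 1.85 and Il1b at 1.79 times the median.

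Ordered by TPM, averaged over the 6 libraries, the members ran from Il1r1 (12.0) through Il33 (7.55), Il1rn (6.77), Il1r2 (4.95), Casp1 (2.77), Il1b (2.58), Il18 (2.08), Nlrp3 (0.815) and Il1rl1 (0.72) to Il1a (0.143). Il1r1 exceeded Il33 in 5 of 6 libraries, and Il33 exceeded Il1rn in 5. Neighbours in the middle were not ordered reliably, since Il1b exceeded Il18 in 3 libraries and Nlrp3 exceeded Il1rl1 in 2. The TPM of Il1b and Il1r2 rested in part on short annotated fragments, Il1b-202 with 48.3% and Il1r2-203 with 44.3% of the gene's TPM, which carried few counts.

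The transcripts of the membrane form of ST2 held 205.0, 161.8 and 87.05 estimated counts with LGK-974 and 290.1, 163.7 and 75.2 with DMSO. Those of the soluble form held 22.24, 0 and 21.15 with LGK-974 and 33.44, 13.36 and 8.508 with DMSO. Most Il1rl1 RNA was thus assigned to the membrane form in all 6 libraries, although 0 soluble counts in LGK-974 replicate 2 allow a share of counts of up to 1.85% by counting error alone. Per kb, the soluble form made up 31.9, 0 and 32.4% with LGK-974 and 22.5, 13.9 and 35.8% with DMSO. The groups overlapped, at 21.4 ± 18.5% against 24.1 ± 11.1% (SD, n = 3 each), and the difference of −2.66 percentage points was within the spread between mice (exact two-sided permutation test, p = 0.8, where 0.1 is the smallest value possible). The program assigned the membrane counts of LGK-974 replicate 2 to Il1rl1-202 alone and those of LGK-974 replicates 1 and 3 to Il1rl1-201 alone, 2 transcripts that encode the same protein, so the division between them is not read here.

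**Figure D4:**
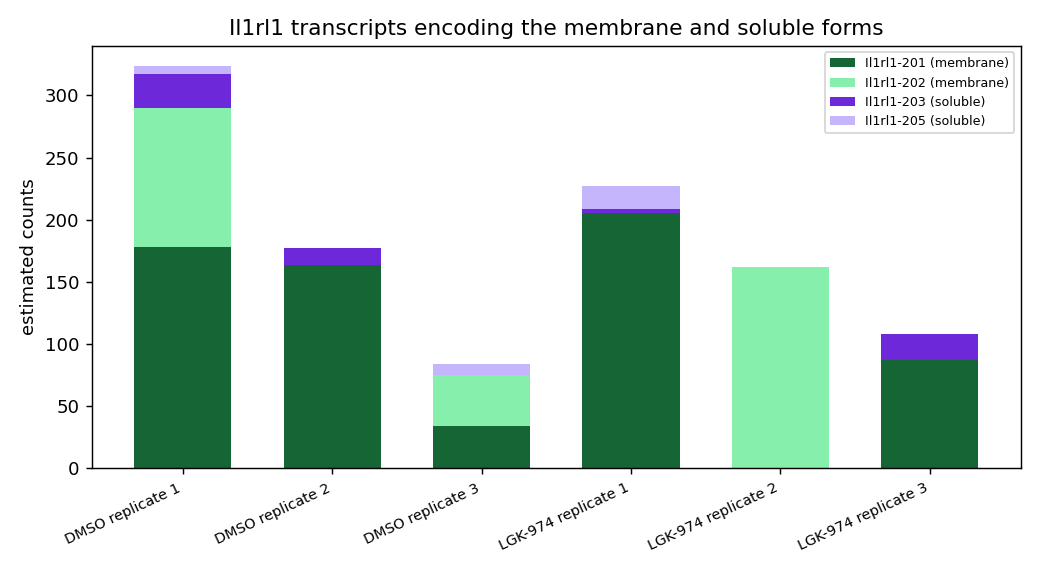
Estimated counts of the Il1rl1 transcripts in each library, stacked, with the membrane form in green and the soluble form in purple. The membrane form holds 75.2 to 290.1 counts and the soluble form 0 to 33.44, and DMSO replicate 1 has the most of both.

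Because a ratio of 2 genes inside a library does not depend on library scaling, 5 ratios between ligands, receptors and inhibitors were compared. The decoy relative to the signalling receptor, Il1r2 per Il1r1, had log2 values of −3.55, −4.38 and −4.21 with LGK-974 and −2.81, −3.463 and −2.999 with DMSO. It was lower in every LGK-974 library, by 0.96 on the log2 scale on average (difference −0.96, exact two-sided permutation test, p = 0.1, adjusted p = 0.25 over the 5 ratios). With TPM in place of estimated counts the groups overlapped, and the difference was −0.76 (exact two-sided permutation test, p = 0.5). The ligand relative to its receptor, Il33 per Il1rl1, had log2 values of 2.91, 2.75 and 3.41 with LGK-974 and 0.51, 1.47 and 2.35 with DMSO. It was higher in every LGK-974 library, with a difference of 1.58 (exact two-sided permutation test, p = 0.1, adjusted p = 0.25). This held with TPM, where the difference was 1.30 (exact two-sided permutation test, p = 0.1). Without DMSO replicate 1 the difference in estimated counts was 1.115. Over DMSO replicates 1, 2 and 3 this ratio rose as the silent-gene median fell, from 40.09 to 14.18 and 3.616 counts per kb. Il1rl1 lay near background, and neither TPM nor a ratio inside a library removes background, whose part was not tested. Neither ratio can pass a threshold of 0.05 with 3 mice in each group.

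The balance of IL-1β to its antagonist, Il1b per Il1rn, did not separate the groups, with mean log2 values of −2.83 ± 1.2 in LGK-974-treated and −3.004 ± 0.644 in DMSO-treated animals (SD, n = 3 each, exact two-sided permutation test, p = 0.9, adjusted p = 0.9). Il18 per Il18bp, the secreted protein that neutralises IL-18, differed by 0.89 while the mice overlapped (exact two-sided permutation test, p = 0.3, adjusted p = 0.375). Il1a per Il1b differed by −2.79, also with overlap (exact two-sided permutation test, p = 0.2, adjusted p = 0.333), and rests on the few Il1a counts.

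**Figure D5:**
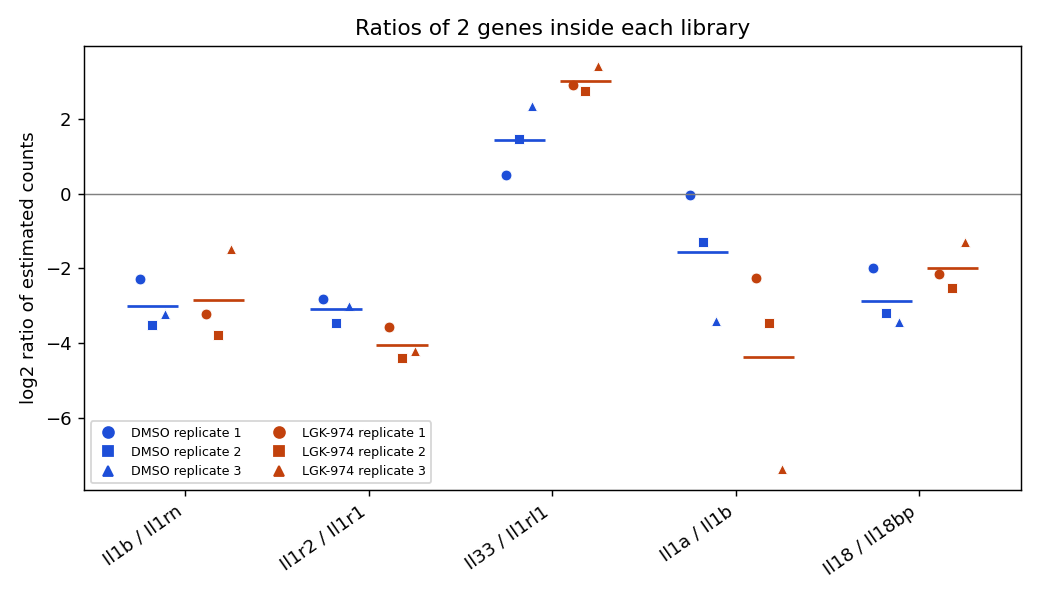
Log2 ratios of estimated counts of 2 genes inside each library, with symbols as in the plot of CPM and lines at the group means (n = 3 mice each). In estimated counts Il1r2 per Il1r1 is lower and Il33 per Il1rl1 is higher in every LGK-974 library, and the other 3 ratios overlap.

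Markers of leukocytes, and part of the markers of fibroblasts, lay higher with LGK-974 alongside the separated members. All 6 pan-leukocyte markers had positive log2 fold changes, 5 of 6 with an unadjusted p under 0.05. Of all tested genes, 6.26% had such a p and were higher with LGK-974. The summed level of the 6 markers was 217.5 to 302.3 CPM with LGK-974 and 134.6 to 171.6 CPM with DMSO. Of the monocyte and macrophage markers, 7 of 9 had such a p, including Lyz2 (lysozyme, log2 fold change 1.30), Adgre1 (F4/80, 0.88) and Cd68 (1.06), and their sum was 423.8 to 574.8 CPM against 184.5 to 264.3 CPM. Of the fibroblast markers 3 of 7 had one, the matrix genes Postn, Col1a1 and Col1a2, and the sum of all 7 was 2166 to 3825 CPM against 1152 to 1670 CPM. In 4 of the 7, Postn, Col1a1, Col1a2 and Tcf21, every LGK-974 library lay above every DMSO library, against 10.7% of all tested genes. Tcf21 had a log2 fold change of 0.59 and an unadjusted p of 0.0578 in edgeR. The fibroblast markers Dcn, Pdgfra and Lum overlapped between groups, with log2 fold changes of 0.0054, 0.13 and 0.49. None of these markers was at 0 in all libraries, and none passed the adjusted threshold in edgeR. Their part in the members' differences was not tested. In other mice at the same time after injury, the paper counted cells by flow cytometry. It reported fewer leukocytes and inflammatory monocytes in hearts with LGK-974, opposite in direction to these marker levels. Cell counts from whole hearts and RNA from the infarct area are unlike measures, and why they differ was not tested.

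Ratios of members to the marker sums were added after the members' values were seen and are given as values only. Il1rn per leukocyte markers differed by 0.32 and Casp1 per leukocyte markers by 0.41 on the log2 scale, both with overlapping groups (exact two-sided permutation tests, p = 0.3 and p = 0.2). Il33 per fibroblast markers differed by −0.05 and Il1r1 per fibroblast markers by −0.29, also with overlap (exact two-sided permutation tests, p = 0.9 and p = 0.6). The fibroblast sum was made up mostly of Col1a1, Col1a2 and Postn, so these ratios compare Il33 and Il1r1 with matrix genes. Il1b per leukocyte markers differed by 0.49 (exact two-sided permutation test, p = 0.5), and over these 5 ratios the adjusted p was 0.75 to 0.9. With 3 mice in each group none of these p-values could go below 0.1, so the overlap is no test of what the marker levels contribute.

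The other marker sums overlapped between groups. Summed neutrophil markers were at 32.88 to 46.0 CPM with LGK-974 and 40.32 to 80.08 CPM with DMSO, and 4 of the 9, among them the defining marker Ly6g, had too few counts for testing. Of the 5 tested, only Cxcr2 had an unadjusted p under 0.05 and was lower, against 7.18% of all tested genes. Its log2 fold change was −1.025, and −0.28 without DMSO replicate 1. Mast cell markers, whose cells respond to IL-33 through ST2, were at 7.259 to 11.57 and 8.965 to 17.09 CPM. Markers of T cells and innate lymphoid cells, which carry ST2 in part, were at 61.76 to 70.56 and 67.64 to 87.49 CPM. Endothelial markers were at 482.4 to 531.6 and 428.7 to 571.8 CPM. Cardiomyocyte markers, the most abundant as the tissue label implies, were at 16960 to 24300 and 21420 to 29160 CPM. Of these 7, Actc1 lay higher in every LGK-974 library, with a log2 fold change of 0.86 and an unadjusted p under 0.05. The other 6 had negative log2 fold changes. Over all tested genes 10.7% lay higher in every LGK-974 library. Gata3 of the T cell list and Vwf of the endothelial list lay lower in every LGK-974 library, against 7.27%.

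In the rest of the IL-1 pathway most genes overlapped between the groups. Of 16 genes of IL-1 receptor signalling, 4 lay higher in every LGK-974 library (10.7% of all tested genes did), of which 1 had an unadjusted p under 0.05, a share near the 6.26% of all tested genes. This was Myd88, the adaptor of the receptor, at 10.57 ± 2.50 in LGK-974-treated and 7.172 ± 0.619 CPM in DMSO-treated animals (SD, n = 3 each, log2 fold change 0.56). Nfkb1, which encodes an NF-κB subunit, and Irak4, a receptor-proximal kinase, had log2 fold changes of 0.28 and 0.35 without such a p. The median of the list was 0.11.

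Of 17 inflammasome partners, 2 were higher with an unadjusted p under 0.05 and 0 were lower. Over all tested genes these shares were 6.26% and 7.18%. P2rx7, the ATP receptor that triggers NLRP3, was at 12.81 ± 1.66 in LGK-974-treated and 8.536 ± 1.17 CPM in DMSO-treated animals (SD, n = 3 each, log2 fold change 0.59), and Mefv, which encodes pyrin, had a log2 fold change of 1.22. The adaptor Pycard, which joins NLRP3 to caspase-1, had a log2 fold change of 0.10 ± 0.189 (SE), and Gsdmd, the pore-forming substrate of caspase-1, had 0.16 ± 0.211 (SE). P2rx7 and Mefv lay higher in every LGK-974 library, as Casp1 did, whereas Pycard and Gsdmd overlapped between groups, and the difference between these genes and Casp1 was not tested.

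Of 13 genes encoding IL-1 response products tested, 2 were higher with an unadjusted p under 0.05, against 6.26% of all tested genes. Ccl2, the chemokine that draws in monocytes, was at 40.4 ± 5.42 in LGK-974-treated and 17.64 ± 5.46 CPM in DMSO-treated animals (SD, n = 3 each, log2 fold change 1.20), and Nfkbiz, a nuclear IκB protein, had a log2 fold change of 0.64. Lcn2, lipocalin-2 of neutrophils and injured tissue, had a log2 fold change of −0.82 without such a p. Of the remaining IL-1 family and receptor genes, 9 of 13 could be tested. With an unadjusted p under 0.05, 0 were higher and 2 were lower, against 6.26% and 7.18% of all tested genes. These were Il1rapl1 and Il1rapl2, receptor-like genes best known from neurons, with DMSO means of 2.838 ± 3.61 and 1.505 ± 1.22 CPM (SD, n = 3 each) that rested on DMSO replicate 1. Their log2 fold changes were −2.48 ± 1.05 and −1.84 ± 0.758 (SE), and −0.56 ± 0.77 and −0.91 ± 0.64 (SE) without that library. Of the 9 genes, 2 lay lower in every LGK-974 library, Il1rapl2 and Il18rap, against 7.27% of all tested genes. Il18rap had a log2 fold change of −0.74 ± 0.334 (SE), and −0.22 ± 0.175 (SE) without DMSO replicate 1. The accessory chain Il1rap, needed by both IL1R1 and ST2, had a log2 fold change of 0.39 ± 0.223 (SE), and Il18r1, the receptor of IL-18, had −0.51 ± 0.347 (SE).

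Patterns most like those of 3 members were ranked by Pearson's r of log2 CPM over the 6 libraries, as a description. For Il33 these were Mphosph10 (0.9925), Galnt4 (0.9918) and Pin4 (0.9882) among 10877 genes. For Il1b they were Spag5, Ttc13 and Dzip1, all highest in LGK-974 replicate 3. For Il1rl1 they were Rab3c (0.9973), A330044P14Rik and Olfr718-ps1, an olfactory receptor pseudogene, all highest in DMSO replicate 1. The points of each correlation share the same libraries and their depth and background.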

How the data were processed

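RNA from the infarct area of 3 LGK-974-treated and 3 DMSO-treated mice was sequenced. The authors quantified transcripts with Kallisto on GRCm38 and deposited, per library, the estimated counts and TPM of 118489 transcripts. Kallisto's version and strand setting are not given in the sources used here. Both ribosomal depletion and a capture kit are named for these libraries.

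Transcripts were joined to genes with the GENCODE annotation of GRCm38 (98.59% joined), and gene sums of estimated counts were rounded. A gene needed 10 or more counts in 3 or more libraries to be tested with edgeR 4.0.16 (R 4.3.3, TMM, quasi-likelihood, Benjamini-Hochberg), with treatment as the only factor. DESeq2, the tool of the study, run here as version 1.42.0, and limma-voom (limma 3.58.1) were alternatives. Exact permutation tests used all 20 splits of the 6 mice. Ratios used a pseudocount of 0.5. Promoter sequence came from RefSeq (GRCm38.p6). Tables were computed in Python 3.11.15 with pandas 2.3.3, SciPy 1.17.1 and NumPy 2.4.6, and plots drawn with matplotlib 3.10.9. The fit was tested on simulated data.

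The members, gene lists and tests were chosen with earlier results of these data known. All members were named, as were 6 pathway genes fixed by name. For Il33, Il1b and Il1rl1 the 3 genes most alike with a mean of at least 5 CPM were named. Other names came from the members' transcripts with at least 5% of the gene's TPM and from up to 3 genes per list with the smallest p-values. Not all of these transcripts and genes are named in the text. The remaining fibroblast markers and Ly6g were named as well. Alternatives changed normalization, test, filter, counting unit, gene types, replicate block and samples. Depth was 41579787 to 80398211 estimated counts, and intervals and floors (3 counts) cover counting error only. No label says whether mice of a group were housed or operated together, so p-values measure only the spread between these samples, which may be technical.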

Additional observations from a re-analysis of the deposited data

How the results depend on the processing

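No member passed the adjusted threshold in edgeR with either other scaling, with counts scaled from TPM, with protein-coding genes only, with background subtracted or in limma-voom. DESeq2 called 289 genes and 2 members, DESeq2 without DMSO replicate 1 (an alternative chosen after seeing the data, as was background subtraction) 324 genes and 3 members, and unfiltered edgeR 1206 genes and 3 members, where Casp1 joined Il33 and Il1rn. Leaving out each mouse in turn gave 0 to 2 called genes, 2 of them without DMSO replicate 1, 0 called members, 4 to 5 members with an unadjusted p under 0.05 and 4 to 6 without overlap. With counts scaled from TPM, 3 members had an unadjusted p under 0.05, without Il1r1. For these counts of members the shares of all genes in the same settings are not given, so they are not read as a result. With a mouse left out, fewer libraries have to be apart, so a lack of overlap is reached more easily. Il33, Il1rn, Casp1, Il1r1, Il1b and Il18 were positive and Il1rl1 and Il1r2 negative in all 16 alternatives. Il1a reversed to 0.15 in DESeq2 without DMSO replicate 1, and Nlrp3 to −0.10 without LGK-974 replicate 3, with a range up to 0.60 over the mice left out and 1.02 with background subtracted. The difference in soluble share was 0.432 percentage points when computed from counts not scaled to length, and −8.14 to 8.04 with each mouse left out. Il1b per Il1rn reversed to −0.35 with TPM and ranged from −0.51 to 0.65 with each mouse left out. The ranges were −1.20 to −0.79 for Il1r2 per Il1r1 (−0.76 with TPM, where the groups overlapped), 1.12 to 2.03 for Il33 per Il1rl1, −3.84 to −1.29 for Il1a per Il1b and 0.54 to 1.33 for Il18 per Il18bp. Per fibroblast markers, Il33 ranged from −0.26 to 0.24 with each mouse left out, positive without DMSO replicate 1 (0.17) or LGK-974 replicate 3, and Il1r1 from −0.46 to 0.011, positive without LGK-974 replicate 3. The causes were not tested. Replicate numbers occur in both groups and were not taken to pair the mice, which are different animals. Deviations of same-numbered libraries correlated at 0.475, −0.0482 and 0.391, so that not every pair was above 0.1, against a mean of −0.136 for different numbers, and 4 of 6 libraries correlated best with their own number. With the replicate block the common dispersion was 0.141, against 0.238 without it, 0 genes were called, and no direction of the members turned. Il1a and Nlrp3 lay below the silent-gene level in DMSO replicate 1, where low values cannot be told from background at any depth.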
